A study of Mus musculus with 7 samples.

Results

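The comparison covers mouse bone marrow samples whose hashtag names begin with HRO against those whose names begin with WTO. A hashtag is an antibody-borne oligonucleotide that marks all cells of a sample before pooling. The samples were taken by name: HRO.7 to HRO.12 made 6 HRO samples and WTO.3 to WTO.6 made 4 WTO samples, 10 of the 20 hashtag samples in the series. They held 24208 of 43024 retained cells, 17397 in HRO and 6811 in WTO. HRO samples held 1223 (HRO.12) to 5530 (HRO.7) cells, and WTO samples held 996 (WTO.5) to 3451 (WTO.4).

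Whole marrow from spine, hips, femur and tibia was freed of red cells with ACK buffer, hashtagged, pooled and read as droplet-based single-cell RNA-seq. The series text gives no meaning for the prefixes HRO and WTO, and no genotype, strain, age, treatment or time for any of these 10 samples. It names a TET2-mutated chronic state for HRO.5 and HRO.6 alone, which belong to neither group here. The text does not say whether hashtags mark separate animals, so p-values measure no more than how far these samples spread, which can be technical. The samples sat in 4 pools: WBM_1 contained WTO.3, WBM_2 contained WTO.4 and 3 HRO samples (HRO.7, HRO.8, HRO.9), WBM_3 contained HRO.10, and WBM_4 contained HRO.11, HRO.12, WTO.5 and WTO.6. Only WBM_2 and WBM_4 held both groups, and values within each are given beside pooled ones.

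Depth and sex-linked transcripts differed between samples. Samples held 9648927 to 56015664 unique molecular identifiers (UMIs, the count of distinct captured transcripts) in HRO and 2926512 to 19737642 in WTO. The Y-linked gene Ddx3y was above 5 UMIs per 1000000 (CPM) in 1 of 6 HRO samples (HRO.9) and in 3 of 4 WTO samples (WTO.3, WTO.5 and WTO.6), and its part in the results was examined only through a fit that held it as a term. Transcripts of mature neutrophils, which also occur as free RNA in droplets, were lower in HRO without overlap, and their part in the results was not tested: the 13 neutrophil markers summed to 92290 to 160600 CPM over all cells of the HRO samples and to 192200 to 251800 CPM in WTO.

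Marrow is the site of erythroid and B-cell production and also houses T cells, plasma cells and dendritic cells. B-cell precursors rearrange immunoglobulin genes with the RAG recombinase and test the heavy chain with the surrogate light chain proteins of the pre-B receptor. Activated T and NK cells secrete interferon gamma, which acts on genes with GAS elements, and the IRF1 protein made in turn acts on ISRE elements. Its targets include the immunity-related and guanylate-binding GTPases and the class I antigen presentation machinery.

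T cells took up a larger part of HRO marrow in every sample. They were gated on 2 or more of 9 genes such as Cd3e, Trac and Bcl11b. T cells were 4.07% of cells in the lowest HRO sample, 8.92% in the median and 10.9% in the highest, against 3.98%, 3.56%, 1.71% and 2.78% in WTO.3 to WTO.6. The groups did not overlap. The means were 8.47% ± 2.65 (SD, n = 6) and 3.01% ± 0.999 (SD, n = 4), with a two-sided exact permutation p of 0.00952, the smallest the 210 splits allow, and an adjusted p of 0.0571 over 12 cell classes. Within pools the shares were 9.53% against 3.56% in WBM_2 and 9.09% against 2.25% in WBM_4. After each cell with at least 1000 UMIs was thinned to 1000, the shares were 7.12% and 2.22%, and the adjusted p was 0.0286 (permutation test). Shallower cells were left out, 2.59% of HRO and 7.08% of WTO cells.

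T cells with a UMI of Cd8a or Cd8b1 and none of Cd4, called CD8 T cells, ran from 1.22% over a median of 2.75% to 5.68% of cells in HRO. They were 1.45%, 0.667%, 0.703% and 0.556% in WTO.3 to WTO.6. WTO.3 lay inside the HRO range and the other 3 WTO samples lay below it. The means were 3.34% ± 1.89 (SD, n = 6) and 0.843% ± 0.407 (SD, n = 4), with an exact permutation p of 0.0190 and an adjusted p of 0.0571. CD4 T cells were 1.90% ± 0.849 (SD, n = 6) and 0.352% ± 0.379 (SD, n = 4), with the same p and adjusted p by the exact permutation test. Among T cells, the CD8 part ranged from 16.5% (HRO.9) to 56.3% (HRO.10) in HRO and from 18.7% (WTO.4) to 41.2% (WTO.5) in WTO, so the make-up of the T cells overlapped between groups.

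Detection of the co-receptors was set against cells that should lack them. Cd4 was seen in 25.8% of HRO and 17.4% of WTO T cells, and in 0.139% and 0.0544% of cells outside every gate, whose median depth was 6903 and 4451 UMIs. Cd8a or Cd8b1 was seen in 42.1% of HRO and 24.7% of WTO T cells, at median depths of 3215.5 and 2114 UMIs, and in 0.812% and 0.272% of ungated cells. In B lineage cells it was seen in 17.5% of HRO cells (105 of 600) and 0.266% of WTO cells, at median depths of 10357 and 1685.5 UMIs, and in HRO these were mostly Cd8b1 UMIs of HRO.7 and HRO.8. The median depth over all T cells was higher in HRO, but by sample the medians overlapped. They ran from 1912 (HRO.10) to 4266 UMIs (HRO.8) in HRO and from 1195.5 (WTO.3) to 4103 (WTO.5) in WTO.

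**Figure D1:**
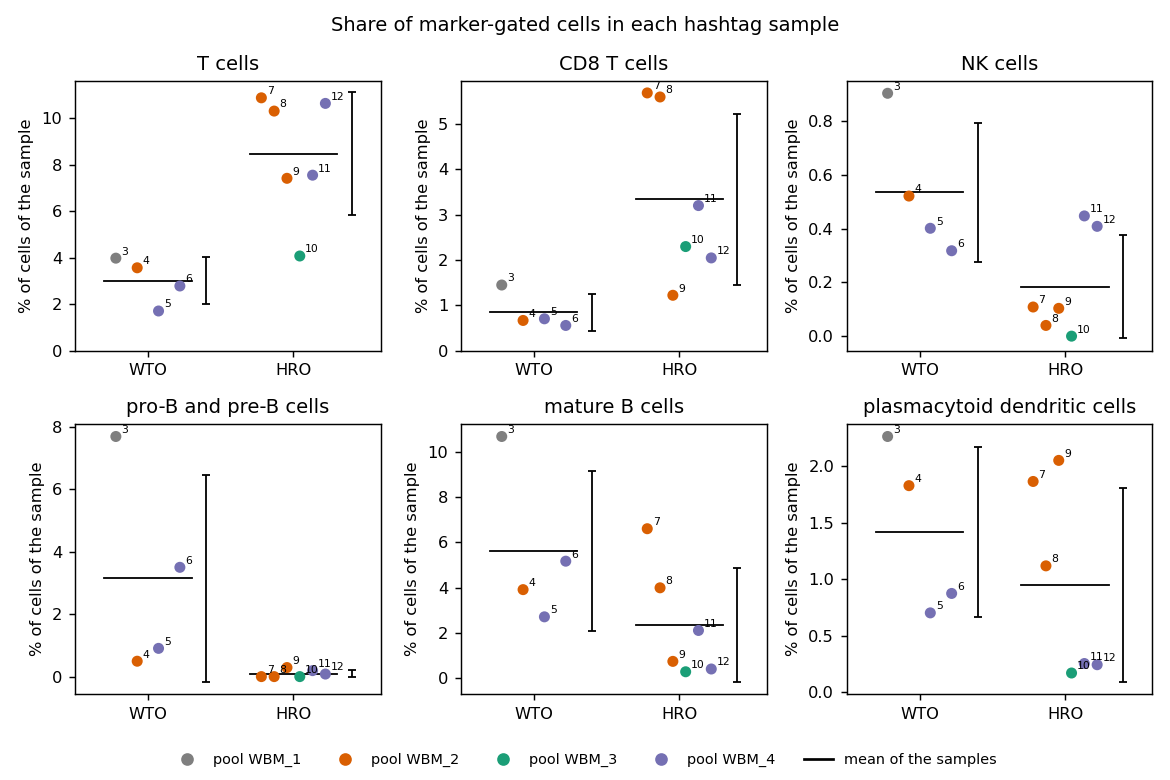
Share of each sample's cells, in percent, that fell in the gates for T, CD8 T, NK, pro-B and pre-B, mature B and plasmacytoid dendritic cells; each dot is a hashtag sample coloured by pool, lines are means and bars SD (n = 6 HRO, n = 4 WTO). All 6 HRO samples lie above all 4 WTO samples for T cells and below them for pro-B and pre-B cells.

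B-cell precursors moved the other way. Cells of the B lineage gate (3 or more of 9 genes such as Cd79a, Cd79b and Pax5) with a UMI of a precursor gene such as Rag1, Rag2, Dntt or Igll1 and none of a mature gene were called pro-B and pre-B cells. They were 0%, 0.0409% and 0.290% of cells in the lowest, median and highest HRO sample, and 7.69%, 0.493%, 0.904% and 3.50% in WTO.3 to WTO.6. No HRO sample reached the lowest WTO sample. The means were 0.0939% ± 0.122 (SD, n = 6) and 3.15% ± 3.31 (SD, n = 4), with an exact permutation p of 0.00952 and an adjusted p of 0.0571. HRO.7, HRO.8 and HRO.10 held 0 such cells of 5530, 2505 and 1744, which allows shares of up to 0.0543%, 0.120% and 0.172% for counting error alone. Without WTO.3 the difference in means fell from 3.05 to 1.54 percentage points. Within pools the shares were 0.0966% against 0.493% in WBM_2 and 0.137% against 2.20% in WBM_4.

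All B lineage cells together were 2.63% ± 2.47 (SD, n = 6) in HRO and 13.8% ± 12.5 (SD, n = 4) in WTO, with an exact permutation p of 0.0381 and an adjusted p of 0.0914. WTO.3 alone held 31.7%, and the difference in means fell from 11.1 to 5.15 percentage points without it. Mature B cells, with a UMI of a gene such as Ighd, Fcer2a or Cr2, were 2.36% ± 2.51 (SD, n = 6) and 5.62% ± 3.52 (SD, n = 4) (exact permutation p = 0.143, adjusted 0.245). They made up 97.6% of B lineage cells in HRO.7 and 96.2% in HRO.8, 51.4% in HRO.9, and 33.6% to 70.7% in WTO. Median depth of these B lineage cells was 11136 and 11798.5 UMIs in HRO.7 and HRO.8 and 781 to 2331.5 in WTO. With cells thinned to 1000 UMIs, mature cells were 184 of 284 B lineage cells in HRO.7, 46 of 76 in HRO.8 and 19 of 65 in HRO.9. In WTO.3 to WTO.6 they were then 19 of 92, 101 of 169, 22 of 45 and 63 of 148. Cells under 1000 UMIs were left out of the thinned set, and B lineage cells of WTO.3 numbered 351 before thinning and 92 after.

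No class passed 0.05 after adjustment over the 12 classes, and the remaining classes had larger p-values than T cells and precursors. NK cells, counted from 0 to 18 per sample, were 0.185% ± 0.193 (SD, n = 6) in HRO and 0.536% ± 0.259 (SD, n = 4) in WTO, with an exact permutation p of 0.0667. Part of the NK transcripts lay outside this gate: 59 of 117 HRO and 32 of 81 WTO UMIs of Ncr1, an activating NK receptor, came from T-gated cells. The NK difference was present in WBM_2, at 0.0840% against 0.522%, and had the opposite sign in WBM_4, at 0.428% against 0.360%. Plasma cells (exact permutation p = 0.505, n = 6 and 4) and plasmacytoid dendritic cells (exact permutation p = 0.391) overlapped between groups. Conventional dendritic cells were 2.35% of HRO.7, 2.04% of HRO.8 and 0.538% of HRO.9 but at most 0.256% of the other 3 HRO samples (exact permutation p = 0.410).

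Erythroid cells were spread unevenly between pools. HRO.11 held 88 (5.63%) and HRO.12 held 117 (9.57%), while HRO.7 and HRO.9 held 0, HRO.8 held 2 and HRO.10 held 8. WTO.3, WTO.5 and WTO.6 held 31, 40 and 36, and WTO.4 held 6. Early (exact permutation p = 0.752, n = 6 and 4) and late (exact permutation p = 0.867) erythroid shares did not pass the test. Lysis of red cells before the libraries were made acts on the most mature cells of this lineage, and its part in these shares was not tested.

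Sums over all cells were compared with edgeR's quasi-likelihood test with pool as a covariate, where a positive log2 fold change means higher in HRO. Of 12785 genes tested, 2473 passed an adjusted p of 0.05, which is 19.3%: 1338 were higher (10.5%) and 1135 lower (8.88%) in HRO. In CPM, 6.22% of genes were higher and 0.696% lower in HRO without overlap between groups. In such sums, more cells of a type and more RNA per cell cannot be told apart. The count rested on WTO.4, the sole WTO sample of pool WBM_2: without it 2 genes passed. All 2468 called genes that could be measured without WTO.4 kept their direction. Both fits share the other samples and the genes were picked by the first, so this is no independent support. The count was 53 without the pool covariate, 1262 when Ddx3y status was a term and 1474 without HRO.7 and HRO.8. Of the 82 calls followed gene by gene over all cells, T cells and B lineage cells, with a gene counted once per class, 9 were kept without WTO.4. Besides Saa3, each all-cell gene described here lost its call without WTO.4, and Igtp, Iigp1, Gbp2, Gbp3, H2-Q7, Tap1, Ifng and Tox also lost it when Ddx3y status was a term. The Gbp2 call was lost too without WTO.6 or HRO.11, the Ifng call without HRO.12, and the Tox call without WTO.5, WTO.6 or HRO.12. In a fit to HRO and WTO samples only, Igtp, Iigp1, Gbp2, Gbp3, Tap1 and Ifng also lost their call. Of the 88 calls of named genes followed in that fit over the classes, 40 were lost. Gzmk, Iigp1 and Gbp2 lost theirs without HRO.7 and HRO.8.

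Interferon gamma response genes were higher in HRO as a group. Of 27 in the list, 26 could be tested, 16 rose and none fell, where 10.5% of all genes rose. The list's median was 1.88 on the log2 scale against 0.03 over all genes (edgeR). The median was 1.81 within WBM_2 and 1.42 within WBM_4. The list is not independent of the data, since earlier results were known when it was made.

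Igtp, an immunity-related GTPase that acts on vacuoles holding intracellular pathogens, ran from 18.8 over a median of 60.8 to 147 CPM in HRO. It was 11.96, 19.4, 8.38 and 8.61 CPM in WTO.3 to WTO.6. Only the highest WTO sample, WTO.4, reached into the HRO range. Its log2 fold change was 2.18 ± 0.53 (SE), with an adjusted p of 0.0162 (edgeR), and the within-pool values were 1.89 and 1.99. Iigp1, another GTPase of that family, ran from 5.58 over 34.4 to 273 CPM in HRO and was 0.342, 5.72, 0.67 and 1.59 CPM in WTO, with WTO.4 just above the lowest HRO sample. The log2 fold change came to 4.59 ± 1.09 (SE; edgeR adjusted p = 0.0145).

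Gbp2, a guanylate-binding protein of host defence, ran from 9.24 over 54.5 to 291 CPM in HRO and was 7.18, 12.7, 5.36 and 2.98 CPM in WTO. WTO.4 again fell inside the HRO range and the other 3 WTO samples below it. The log2 fold change was 3.12 ± 0.83 (SE; edgeR adjusted p = 0.0215). Gbp3, of the same family, did not overlap: 15.5, 38.0 and 85.2 CPM in the lowest, median and highest HRO sample against 5.47, 14.3, 6.26 and 6.06 CPM (log2 1.93 ± 0.42, edgeR adjusted p = 0.0096).

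The 250 bases before the annotated start of Igtp, Gbp2, Irf1 and Psmb8 are shown, from RefSeq promoters of GRCm38.p6 on the plus strand, because these genes were called in all cells or in B lineage cells and hold one of 2 interferon motifs. Capitals mark matches to the ISRE letters (GAAA, any 2 bases, then GAAA) or the GAS letters TTCNNNGAA, searched on both strands. The intervals are chr11:58199306-58199555, chr3:142620413-142620662, chr11:53769764-53770013 and chr17:34197945-34198194.
Igtp: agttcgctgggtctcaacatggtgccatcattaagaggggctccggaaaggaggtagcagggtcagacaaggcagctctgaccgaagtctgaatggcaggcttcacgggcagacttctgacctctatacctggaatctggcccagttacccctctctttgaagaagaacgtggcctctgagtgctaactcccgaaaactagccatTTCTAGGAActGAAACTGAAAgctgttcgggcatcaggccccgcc
Gbp2: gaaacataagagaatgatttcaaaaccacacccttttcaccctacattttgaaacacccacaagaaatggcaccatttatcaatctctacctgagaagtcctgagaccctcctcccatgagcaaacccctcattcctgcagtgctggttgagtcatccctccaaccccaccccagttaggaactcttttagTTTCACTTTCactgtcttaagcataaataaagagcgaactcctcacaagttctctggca
Irf1: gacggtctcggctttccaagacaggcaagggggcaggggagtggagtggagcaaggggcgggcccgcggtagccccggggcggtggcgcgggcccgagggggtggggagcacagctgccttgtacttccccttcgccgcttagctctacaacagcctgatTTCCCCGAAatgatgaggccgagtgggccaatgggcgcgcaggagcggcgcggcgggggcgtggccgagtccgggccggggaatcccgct
Psmb8: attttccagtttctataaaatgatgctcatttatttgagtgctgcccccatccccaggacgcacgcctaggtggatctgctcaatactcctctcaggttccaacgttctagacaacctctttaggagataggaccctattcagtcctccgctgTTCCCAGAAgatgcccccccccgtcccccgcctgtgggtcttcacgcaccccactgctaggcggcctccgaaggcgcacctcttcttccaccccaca
Igtp holds a GAS match 45 bases and an ISRE match 34 bases before its start. Gbp2 holds an ISRE match 59 bases before, and Irf1 and Psmb8 hold GAS matches 90 and 97 bases before. Over windows from 250 bases before to 50 after the start, 73.3% of the 15 matched interferon gamma list promoters held an ISRE match and 46.7% a GAS match, against 3.49% and 8.47% of 27025 promoters. The shares were 31.2% and 6.25% for 16 class I presentation genes, 57.1% and 14.3% for 21 type I interferon genes, 0% and 4.55% for 22 cell cycle genes, and 0% and 22.2% for 9 naive lymphocyte genes. A match is only a match of letters.

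Class I presentation genes also rose. Of 18 listed and tested, 13 rose and none fell, where 10.5% of all genes rose. All 18 had a positive fold change, with a median of 1.04 (edgeR). H2-Q7, a nonclassical class I chain, ran from 110 over 256 to 529 CPM in HRO and was 95.7, 88.2, 34.6 and 47.9 CPM in WTO, without overlap. Its log2 fold change was 2.19 ± 0.45 (SE; edgeR adjusted p = 0.0081), with 1.76 and 2.32 within pools. Tap1, which carries peptides into the endoplasmic reticulum, ran from 79.3 over 182 to 343 CPM in HRO against 54.0, 93.7, 41.0 and 48.9 CPM, with WTO.4 above the lowest HRO sample (log2 1.25 ± 0.30, edgeR adjusted p = 0.0143).

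Of 28 type I interferon genes, 27 were tested and 8 rose, with a median of 0.58, and of 13 class II presentation genes 2 rose, with a median of 0.46 (edgeR). Over all genes 10.5% rose, so the class II count is near the background. The type I median was 0.61 within WBM_2 and 0.21 within WBM_4, and the class II median 1.40 and 0.14.

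Saa3, an acute-phase serum amyloid gene, had the largest rise named. It ran from 45.7 over 320 to 761 CPM in HRO and was 2.39, 6.59, 1.12 and 0.744 CPM in WTO.3 to WTO.6. The lowest HRO sample was above every WTO sample. The means were 348 ± 291 (SD, n = 6) and 2.71 ± 2.68 (SD, n = 4) CPM, and the log2 fold change was 6.58 ± 0.64 (SE; edgeR adjusted p = 0.000539). Saa3 kept its call under all 17 alternatives run for it, with 6.16 to 7.37 when single samples were left out. Among genes that fell, 2310001H17Rik, a transcript without an assigned role here, ran from 27.0 over 40.6 to 53.6 CPM in HRO and was 126, 86.6, 75.8 and 83.2 CPM in WTO, without overlap (log2 −1.22 ± 0.14, edgeR adjusted p = 0.00216).

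Transcripts of activated and cytotoxic T cells were also higher in HRO. Of 18 cytotoxic effector genes 6 rose and none fell (median 1.40), and of 19 tested genes of activated or exhausted T cells 9 rose and 2 fell (median 1.46; edgeR), where 10.5% of all genes rose and 8.88% fell. Ifng, the interferon gamma gene, ran from 0.933 over 5.61 to 20.3 CPM in HRO and was 0.342, 0.709, 0.559 and 1.06 CPM in WTO. WTO.6 was above the lowest HRO sample. The log2 fold change came to 3.22 ± 0.86 (SE; edgeR adjusted p = 0.0219), with 3.22 in WBM_2 and 2.40 in WBM_4. Of its UMIs, 1706 of 1767 in HRO (96.6%) and 20 of 30 in WTO (66.7%) came from T-gated cells.

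Gzmk, a granzyme of effector memory CD8 T cells, ran from 1.05 over 7.12 to 18.3 CPM in HRO and was 0, 1.17, 0.112 and 0.319 CPM in WTO, with WTO.4 inside the HRO range. The log2 fold change was 3.88 ± 0.86 (SE; edgeR adjusted p = 0.0105), and 98.5% of its HRO UMIs and 85.2% of its WTO UMIs came from T-gated cells. Pdcd1, the inhibitory receptor PD-1, did not overlap, at 2.38, 4.36 and 9.01 CPM in the lowest, median and highest HRO sample against 0.342, 0.861, 0 and 0.319 CPM. Its log2 fold change was 3.15 ± 0.65 (SE; edgeR adjusted p = 0.00842), and 824 of 906 HRO UMIs and 15 of 21 WTO UMIs lay in T-gated cells. Tox, a transcription factor of chronically stimulated T cells, rose by 1.62 ± 0.42 (SE) on the log2 scale without overlap (edgeR adjusted p = 0.019).

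B-cell precursor transcripts fell. Of 14 genes of the pre-B receptor and recombination, 8 fell and none rose, where 8.88% of all genes fell. Their median was −2.13 (edgeR), −1.10 within WBM_2 and −2.27 within WBM_4. Rag2, a subunit of the recombinase, ran from 0 over 0.0792 to 0.172 CPM in HRO and was 6.83, 0.76, 0.894 and 2.34 CPM in WTO, without overlap (log2 −3.65 ± 0.61, edgeR adjusted p = 0.00458). Vpreb3, a partner of the pre-B receptor and one of the B lineage gate genes, ran from 0.207 over 2.74 to 10.5 CPM in HRO and was 479, 42.1, 37.1 and 159 CPM in WTO, without overlap (log2 −4.23 ± 0.69, edgeR adjusted p = 0.00426). Bach2, a repressor that holds lymphocytes in a resting state, ran from 1.68 over 2.80 to 5.66 CPM in HRO and was 101, 17.1, 10.4 and 30.9 CPM in WTO, again without overlap (log2 −2.88 ± 0.44, edgeR adjusted p = 0.00383). These 3 genes, and 2310001H17Rik, lost their call only without WTO.4 among 17 alternatives.

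**Figure D2:**
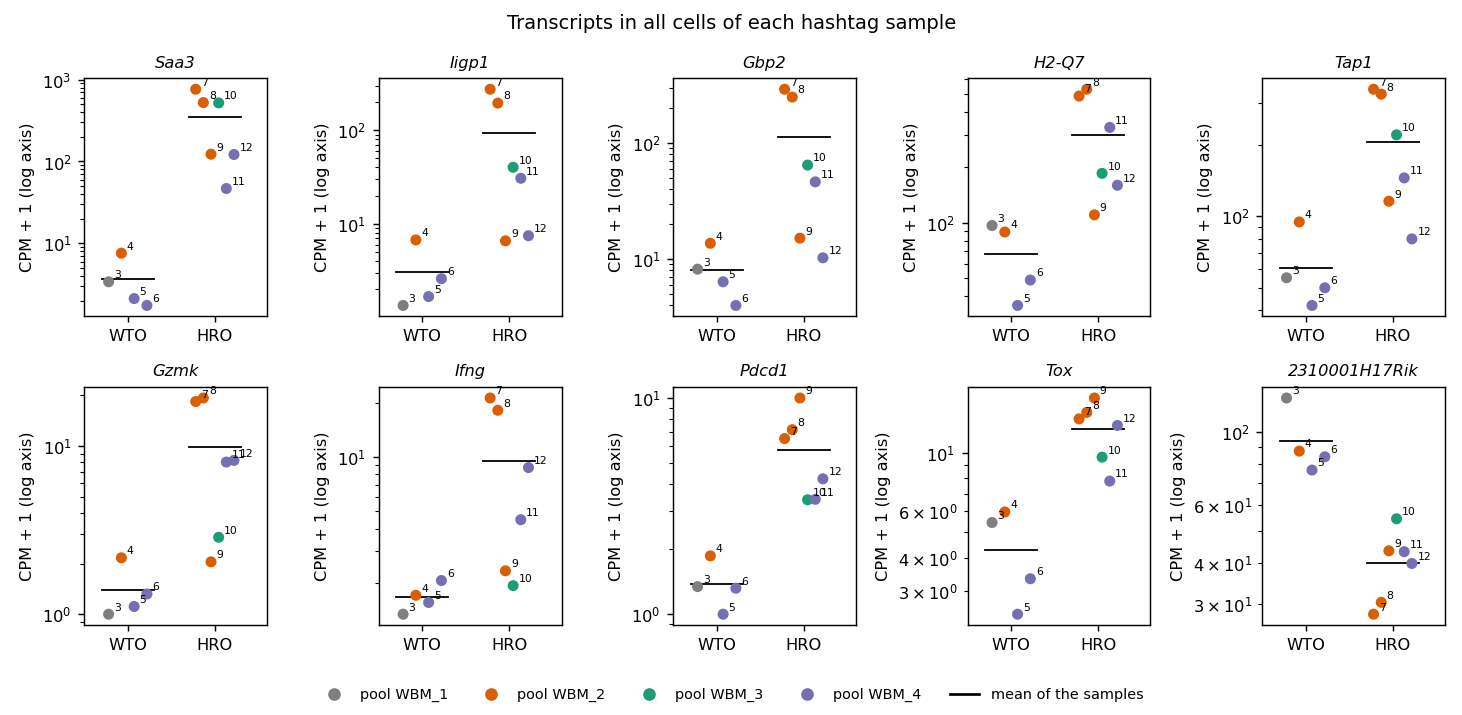
Level of 10 genes summed over all cells of a sample, in CPM plus 1 on a log axis; each dot is a hashtag sample and lines are group means (n = 6 HRO, n = 4 WTO). Saa3, H2-Q7, Pdcd1 and Tox are higher in every HRO sample and 2310001H17Rik is lower in every one.

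Within T cells few genes passed. WTO.5 had 17 T cells, under the minimum of 20, so 6 HRO samples were set against WTO.3, WTO.4 and WTO.6. T cells of a sample summed to 172506 to 3945428 UMIs in HRO and 66307 to 414014 in WTO, so low CPM values in WTO rest on few UMIs. Of 5970 genes 4 passed (edgeR adjusted p under 0.05), which is 0.067%, 2 higher (0.0335%) and 2 lower (0.0335%) in HRO, and 465 had an unadjusted p under 0.05. In CPM, 4.04% of genes were higher and 1.12% lower without overlap. DESeq2 called 16, and the fit without the pool covariate called 0. Leaving out WTO.3, WTO.4, HRO.7, HRO.10 or HRO.12 also left 0 genes, and leaving out HRO.9 gave 49.

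Lax1, an adaptor that dampens antigen receptor signalling, ran from 47.3 over 67.5 to 98.5 CPM in HRO T cells and was 0, 7.25 and 16.2 CPM in WTO.3, WTO.4 and WTO.6. The log2 fold change came to 2.66 ± 0.40 (SE; edgeR adjusted p = 0.0461), with 2.55 and 2.01 within pools. S100a4, a calcium-binding protein of memory T cells, ran from 348 over 528 to 835 CPM against 121, 116 and 156 CPM (log2 1.75 ± 0.24, edgeR adjusted p = 0.0384). Rgcc, a regulator of the cell cycle, fell: 5.80, 17.2 and 58.0 CPM in the lowest, median and highest HRO sample against 75.4, 164 and 545 CPM (log2 −3.60 ± 0.48, edgeR adjusted p = 0.0384). None of these 3 overlapped between groups. Rgcc was called under 10, S100a4 under 8 and Lax1 under 5 of 18 alternatives, and all 3 lost their call without any one of WTO.3, WTO.4, WTO.6, HRO.7, HRO.10 or HRO.12. The fourth call, Prss34, is a basophil protease outside the naming rule and was named after its value was seen, at 1.13 ± 1.23 CPM (SD, n = 6) in HRO and 52.3 ± 50.8 CPM (SD, n = 3) in WTO T cells (edgeR adjusted p = 0.0461).

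The effector genes that rose over all cells did not pass within T cells. Ifng ran from 34.8 to 284 CPM in HRO T cells and was 15.1, 14.5 and 48.5 CPM in WTO (log2 2.33 ± 0.94, edgeR adjusted p = 0.568). Gzmb, the granzyme that triggers apoptosis in target cells, ran from 58.9 to 620 CPM against 30.2, 14.5 and 43.1 CPM, without overlap (log2 3.102 ± 1.137, edgeR adjusted p = 0.558). Lag3, an inhibitory receptor, ran from 75.6 to 286 CPM against 90.5, 24.2 and 5.39 CPM (log2 3.28 ± 0.68, edgeR adjusted p = 0.24). The 18 cytotoxic effector genes had a median of 1.26 and 0 calls, and 5 of them were higher without overlap, where 4.04% of all genes were. The 13 NK markers had 0 calls within T cells, a median of −0.96 (−1.75 in WBM_2 and 0.36 in WBM_4), and sums of 936 to 3683 CPM in HRO and 2157 to 2756 CPM in WTO T cells. Foxp3, the regulator of regulatory T cells, overlapped widely (log2 −0.82 ± 1.12, edgeR adjusted p = 0.945). Neutrophil marker sums in T cells were 7291 to 89640 CPM in HRO and 33520 to 83840 CPM in WTO, and neutrophil precursor sums were 158 to 4057 CPM in HRO and 332 to 24940 CPM in WTO. Their part in the calls was not tested.

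B lineage cells carried many calls. The fit took HRO.7, HRO.8, HRO.9 and HRO.11 against all 4 WTO samples, since HRO.10 and HRO.12 had 6 such cells each. Of 8190 genes 735 passed (edgeR), which is 8.97%: 411 higher (5.02%) and 324 lower (3.96%) in HRO. In CPM, 5.42% of genes were higher and 10.6% lower without overlap. The count was 100 without WTO.4, 69 without HRO.11, 1958 without HRO.9 and 311 without HRO.7 and HRO.8 together. Of the 735, 715 could be measured without WTO.4 and all 715 kept their direction. Both fits share the other samples, so this too is no independent support. The make-up of the gate differed, with precursors at 0% in HRO.7 and HRO.8, 14 of 70 cells in HRO.9, 7.50% in HRO.11 and 8.90% to 27.8% in WTO, and the median depth was 4582 to 11798.5 UMIs per cell in these 4 HRO samples and 781 to 2331.5 in WTO.

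Subunits of the immunoproteasome, which cuts proteins into peptides for class I molecules, rose in B lineage cells. Psmb8, a catalytic subunit, was 719, 730, 654 and 475 CPM in HRO.7, HRO.8, HRO.9 and HRO.11 and 291, 337, 220 and 332 CPM in WTO.3 to WTO.6. Every HRO sample was above every WTO sample. Its log2 fold change was 1.17 ± 0.21 (SE; edgeR adjusted p = 0.00725), with 1.25 and 1.10 within pools. Psme2, a subunit of the proteasome activator, was 657, 695, 267 and 533 CPM against 160, 210, 110 and 189 CPM, also without overlap (log2 1.82 ± 0.38, edgeR adjusted p = 0.0145). Both calls were lost without WTO.4 or without HRO.11, and that of Psme2 also in a fit to HRO and WTO samples only.

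Psme1 and Psmb9 rose as well, by 1.27 ± 0.27 and 0.97 ± 0.23 (SE) on the log2 scale (edgeR adjusted p = 0.0153 and 0.0242). Both lost their call without WTO.4, without HRO.11 or in a fit to HRO and WTO samples only. In all, 7 of 18 class I presentation genes rose in B lineage cells, none fell, and the median was 0.62 against −0.01 over all genes, of which 5.02% rose. The classical chain H2-K1 did not pass (log2 0.24 ± 0.20, edgeR adjusted p = 0.491). Of 17 interferon gamma response genes tested 4 rose, with a median of 0.80. Within pools the list's median was 0.06 in WBM_2, where WTO.4 was the sole WTO sample, and 1.80 in WBM_4. The list as a whole was thus higher in WBM_4 only, where HRO.11, with 40 cells, was the sole HRO sample fitted. The genes that rose included Igtp (log2 2.20 ± 0.53, edgeR adjusted p = 0.0244), Gbp2 (log2 3.11 ± 0.80, edgeR adjusted p = 0.0307) and Irf1, the transcription factor that binds ISRE elements (log2 0.89 ± 0.26, edgeR adjusted p = 0.0453). All 3 lost their call without WTO.4, WTO.6, HRO.7 or HRO.11, and Igtp and Irf1 also in a fit to HRO and WTO samples only.

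Mef2b and Shisa8 were among the 8 largest rises that the naming rule took, and Cd83 came from the dendritic cell maturation list. Mef2b, a transcription factor of germinal centre B cells, was 257, 250, 102 and 48.6 CPM in HRO.7, HRO.8, HRO.9 and HRO.11 and 0, 3.30, 0 and 1.59 CPM in WTO. All 4 HRO samples were above WTO, HRO.7 and HRO.8 furthest. The log2 fold change came to 5.89 ± 0.65 (SE; edgeR adjusted p = 0.000782), and it was called under all 17 alternatives run. Shisa8, a membrane protein best known from neurons, was 457, 483, 43.3 and 275 CPM against 4.76, 14.9, 5.51 and 1.59 CPM, without overlap (log2 5.47 ± 0.85, edgeR adjusted p = 0.00339). Cd83, a surface marker of activated B and dendritic cells, was 201, 214, 94.1 and 59.9 CPM against 14.3, 44.6, 22.04 and 19.1 CPM, without overlap (log2 2.06 ± 0.37, edgeR adjusted p = 0.0065). The Shisa8 call was lost without HRO.11, and the Cd83 call without HRO.11 or WTO.4.

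Homing and quiescence genes fell in the same cells. Ccr7, the receptor that guides lymphocytes to lymph nodes, was 2.99, 4.53, 15.3 and 1.87 CPM in HRO.7, HRO.8, HRO.9 and HRO.11 and 69.1, 72.6, 66.1 and 52.5 CPM in WTO. The 4 WTO samples lay close together and all above HRO. Its log2 fold change was −3.78 ± 0.44 (SE; edgeR adjusted p = 0.000782), with −2.87 and −3.48 within pools, and it was called under all 17 alternatives. Bach2 was 4.27, 2.27, 130 and 22.4 CPM against 617, 390, 430 and 431 CPM, with HRO.9 the highest HRO sample and still below WTO (log2 −3.65 ± 0.91, edgeR adjusted p = 0.0275). Its call was lost without WTO.4, WTO.5, WTO.6 or HRO.11 and in a fit to HRO and WTO samples only. Of 10 tested genes of naive and central memory lymphocytes 5 fell and none rose, with a median of −2.27, where 3.96% of all genes fell.

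Ebf1, a B lineage commitment factor and itself a gate gene, was 296, 271, 860 and 385 CPM against 2653, 1413, 1912 and 2699 CPM (log2 −1.83 ± 0.38, edgeR adjusted p = 0.0147). Rag2 was 0, 0, 5.09 and 1.87 CPM against 47.6, 23.1, 27.6 and 34.97 CPM (log2 −4.85 ± 0.86, edgeR adjusted p = 0.00607). Neither gene overlapped between groups, and both calls were lost without WTO.4. That of Ebf1 was also lost without HRO.11 and in a fit to HRO and WTO samples only. Cpm, a membrane carboxypeptidase, was 1.28, 0.755, 7.63 and 0 CPM against 95.3, 85.8, 77.2 and 81.1 CPM (log2 −5.50 ± 0.63, edgeR adjusted p = 0.000782). Of 14 pre-B receptor and recombination genes 3 fell, where 3.96% of all genes did, with a median of −2.79. Of these 14, 9 were lower without overlap, where 10.6% of all genes were. Mki67, a proliferation marker, did not pass (log2 0.06 ± 0.26, edgeR adjusted p = 0.933).

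**Figure D3:**
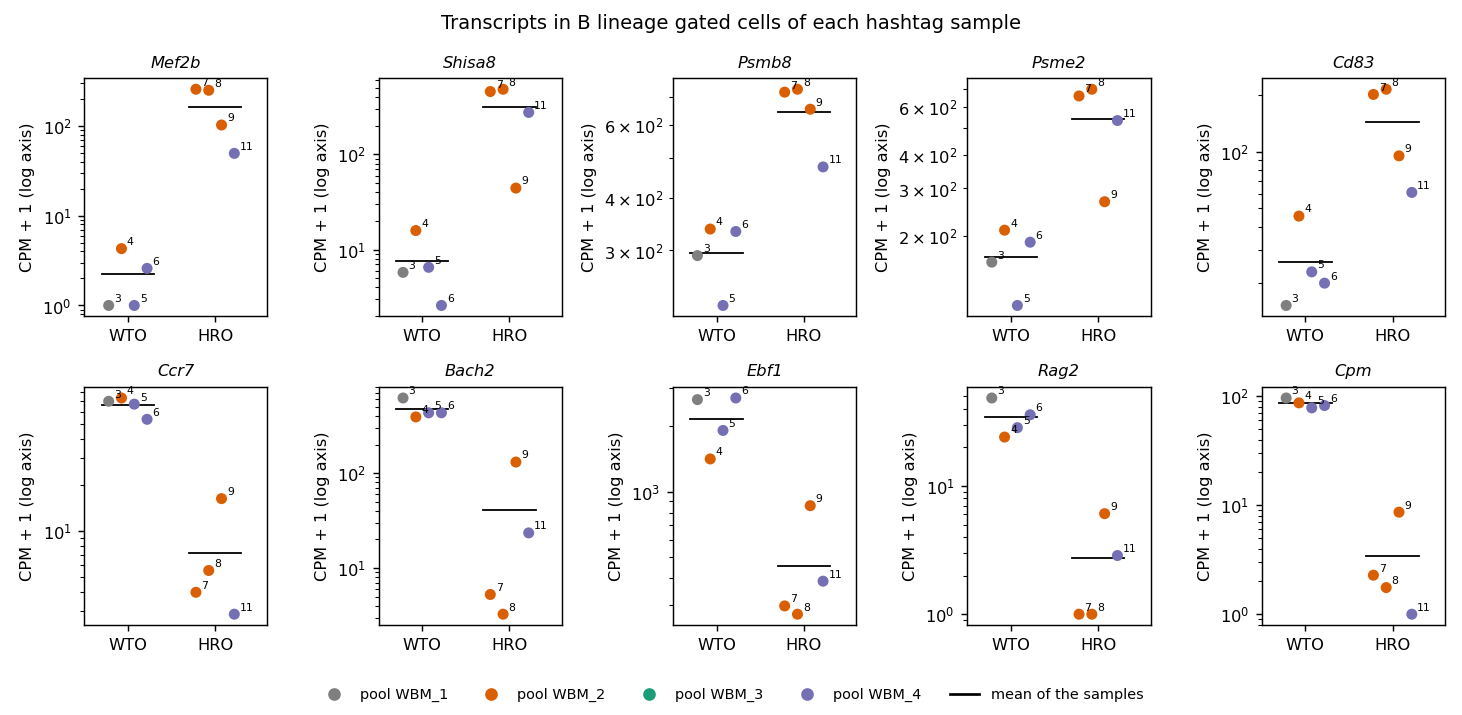
Level of 10 genes summed over B lineage cells of a sample, in CPM plus 1 on a log axis; each dot is a hashtag sample with at least 20 such cells (n = 4 HRO, n = 4 WTO) and lines are group means. Mef2b, Shisa8, Psmb8, Psme2 and Cd83 are higher in every HRO sample and Ccr7, Bach2, Ebf1, Rag2 and Cpm lower in every one.

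HRO.7 and HRO.8 stood apart from the other B lineage samples in genes chosen after their values were seen. Ccl22, a chemokine made by mature dendritic cells and activated B cells, had a UMI in 67.9% of the 374 B lineage cells of HRO.7 and 78.8% of the 104 of HRO.8, against 2.86% in HRO.9, 2.50% in HRO.11 and 0% in the 752 WTO cells, which allows up to 0.399% for counting error alone. Shisa8 was seen in 88.2%, 89.4%, 17.1% and 52.5% of cells in HRO.7, HRO.8, HRO.9 and HRO.11 and in 1.20% of WTO cells. In B lineage cells of HRO.7 and HRO.8, Cd79a was seen in 99.7% and 100% and Pax5 in 97.1% and 96.2%. Both are B lineage gate genes, so the gate partly fixed their detection, which is no independent sign of B-cell identity. Median depth was 11136 and 11798.5 UMIs in these samples and 781 to 2331.5 in WTO, and its part in the detection shares was not tested. The 10 markers of mature or migratory dendritic cells summed to 1898 and 2576 CPM in B lineage cells of HRO.7 and HRO.8, 282 and 129 CPM in HRO.9 and HRO.11, and 127 to 215 CPM in WTO.

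Of the 478 B lineage cells of HRO.7 and HRO.8, 336 had a Ccl22 UMI. Cd70, a costimulatory ligand, was seen in 50.3% of those and in 14.1% of the 142 without one, and Fscn1, an actin-bundling protein of mature dendritic cells, in 65.2% and 38.7%. Their median depths were 11927 and 8804.5 UMIs. Cd8b1, the beta chain of the CD8 co-receptor, had a UMI in 19.8% of B lineage cells in HRO.7 and 26 of 104 cells in HRO.8, against 0% in HRO.9, which allows up to 4.29%, 2.50% in HRO.11 and 0% in WTO. Its partner Cd8a was seen in 1.07% and 0.962%, and Cd3e in 1.34% and 0.962%, of the same cells, while T cells of HRO showed Cd8a in 37.8% and Cd3e in 77.4%. Cd8b1 was thus seen in B lineage cells largely without Cd8a or Cd3e.

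Plasmacytoid dendritic cells, the main source of type I interferon in viral infection, were compared in HRO.7, HRO.8 and HRO.9 against WTO.3 and WTO.4. Of 3849 genes 4 passed (edgeR), which is 0.104%, 2 higher (0.052%) and 2 lower (0.052%), and 247 reached 0.05 before adjustment. The count was 0 without HRO.7 and 0 with Ddx3y status as a term, 2 with DESeq2, 2 without HRO.7 and HRO.8, 7 over the HRO and WTO samples alone, 9 without HRO.9 and 18 with a stricter gate, and could not be fitted without WTO.4. In CPM, 18.7% of genes were higher and 10.7% lower without overlap. In plasmacytoid dendritic cells late erythroid markers summed to 43120 CPM in WTO.3 and 25 CPM in WTO.4, and conventional dendritic cell markers to 8823 and 10110 CPM in HRO.7 and HRO.8. Each sum is given for these samples only, so it is no comparison of the groups, and its part in the calls was not tested.

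Fos, an immediate early transcription factor, was 236, 164 and 284 CPM in HRO.7 to HRO.9 and 16.0 and 12.4 CPM in WTO.3 and WTO.4 (log2 4.20 ± 0.57, edgeR adjusted p = 0.0301). Cd69, an early activation receptor, was 181, 160 and 146 CPM against 0 and 18.6 CPM (log2 3.13 ± 0.45, edgeR adjusted p = 0.0301). Both were higher in every HRO sample than in either WTO sample. Plasmacytoid cells of a sample summed to 244037 to 851218 UMIs in HRO and 62414 to 323160 in WTO, so the low WTO values rest on few UMIs. Klk1, a kallikrein that is one of the gate genes, was 197, 205 and 160 CPM against 304 and 721 CPM (log2 −1.92 ± 0.28, edgeR adjusted p = 0.0301). Cd4, which mouse plasmacytoid cells also carry and which falls outside the naming rule, was 23.5, 16.4 and 25.8 CPM against 96.1 and 139 CPM (log2 −2.55 ± 0.36, edgeR adjusted p = 0.0301). Of 15 plasmacytoid identity and nucleic acid sensing genes tested, 1 was called lower and 1 had a positive fold change, with a median of −0.45. Of 10 immediate early genes tested in these cells 1 rose, with a median of 1.06. Interferon gamma response genes had 0 calls among 12 and a median of 1.004.

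Conventional dendritic cells could be compared only with a minimum of 10 cells in place of 20, a choice made after the data were seen, in HRO.7, HRO.8 and HRO.9 against WTO.3 and WTO.4. Of 2248 genes 0 passed (edgeR), which is 0.0%; 285 had an unadjusted p under 0.05, and DESeq2 called 1. In CPM, 19.6% of genes were higher and 14.1% lower without overlap. Cd209a, a lectin of monocyte-like and type 2 conventional dendritic cells and one of the gate genes, was 0, 0 and 21.9 CPM in HRO.7, HRO.8 and HRO.9 and 844 and 313 CPM in WTO.3 and WTO.4 (edgeR adjusted p = 0.381). Xcr1, a receptor of type 1 cells and also a gate gene, was 595, 688 and 13.2 CPM against 0 and 0 CPM. Both genes were chosen after their values were seen. In conventional dendritic cells the 11 type 1 markers summed to 5858 and 6098 CPM in HRO.7 and HRO.8, 2586 CPM in HRO.9, and 1312 and 2785 CPM in WTO.3 and WTO.4. The 10 type 2 markers summed to 171, 224 and 1144 CPM against 2093 and 1307 CPM. HRO.9 had 26 such cells, WTO.3 had 11 and WTO.4 had 10.

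Erythroid cells had enough cells in HRO.11 and HRO.12 against WTO.3, WTO.5 and WTO.6. Of 8440 genes 15 passed (edgeR), which is 0.178%, 11 higher (0.13%) and 4 lower (0.0474%) in HRO, with 671 at an unadjusted p under 0.05. In CPM, 18.2% of genes were higher and 6.52% lower without overlap. Ddx3y status separated these groups completely, 4 of the 15 calls were Xist, Ddx3y, Eif2s3y and Uty, and the count was 0 with Ddx3y status as a term. Sex-linked and other differences between these samples cannot be told apart. The count was 7 without WTO.5, 1 without WTO.6, 80 without HRO.12 and 172 without HRO.11. Neutrophil marker sums in erythroid cells were 6786 and 2467 CPM in HRO and 29920, 5758 and 20740 CPM in WTO, and late erythroid sums were 15760 and 21240 CPM against 82410, 9213 and 35180 CPM.

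Class I heavy chains were among the erythroid calls. H2-K1, a classical chain, was 862 and 618 CPM in HRO.11 and HRO.12 and 261, 288 and 242 CPM in WTO.3, WTO.5 and WTO.6. H2-D1, another classical chain, was 828.8 and 578 CPM against 400, 335 and 291 CPM. H2-Q6, a nonclassical chain, was 102 and 58.0 CPM against 8.69, 7.80 and 1.97 CPM. In each of these the HRO samples were above every WTO sample, HRO.11 highest. The log2 fold changes were 1.46 ± 0.23, 1.14 ± 0.19 and 3.90 ± 0.55 (SE), with edgeR adjusted p of 0.0374, 0.0439 and 0.02, and 1.44, 1.12 and 3.75 within WBM_4. The 3 calls were lost without WTO.5 or without WTO.6. H2-Q genes are near-identical copies, so reads may be split between them.

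In erythroid cells all 18 genes of the class I list had a positive fold change: 3 rose, the median was 1.40 against 0.00 over all genes, and 17 of 18 were higher without overlap, where 18.2% of all genes were. Psmb8 (log2 1.46 ± 0.26, edgeR adjusted p = 0.0572) and Igtp (log2 2.53 ± 0.49, edgeR adjusted p = 0.0888) did not pass. Of 16 interferon gamma response genes 0 passed, with a median of 1.75, and 11 were higher without overlap.

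Other erythroid calls included Ccnd2, Mt2 and Trim2. Ccnd2, a G1 cyclin, was 90.3 and 94.8 CPM in HRO against 34.8, 30.4 and 22.7 CPM (log2 1.77 ± 0.21, edgeR adjusted p = 0.00807). Mt2, a metallothionein, was 396 and 361 CPM against 248, 151 and 152 CPM (log2 1.30 ± 0.18, edgeR adjusted p = 0.02). Trim2, a ubiquitin ligase, fell, at 9.65 and 5.57 CPM against 34.8, 39.8 and 50.3 CPM (log2 −2.59 ± 0.35, edgeR adjusted p = 0.02), and its fold change turned to 3.44 with Ddx3y status as a term (adjusted p = 0.917).

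Genes of haemoglobin production did not pass in erythroid cells. The 5 globin and chaperone genes tested had a median of −0.44, 13 heme synthesis genes −0.27, 14 iron handling genes −0.14 and 22 erythroid transcription and membrane genes −0.07, with 0 calls in each (edgeR). Hba-a1, an alpha globin, had a log2 fold change of −0.44 ± 0.38 (SE; edgeR adjusted p = 0.844), and 26 cell cycle genes had a median of −0.31 with 0 calls.

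**Figure D4:**
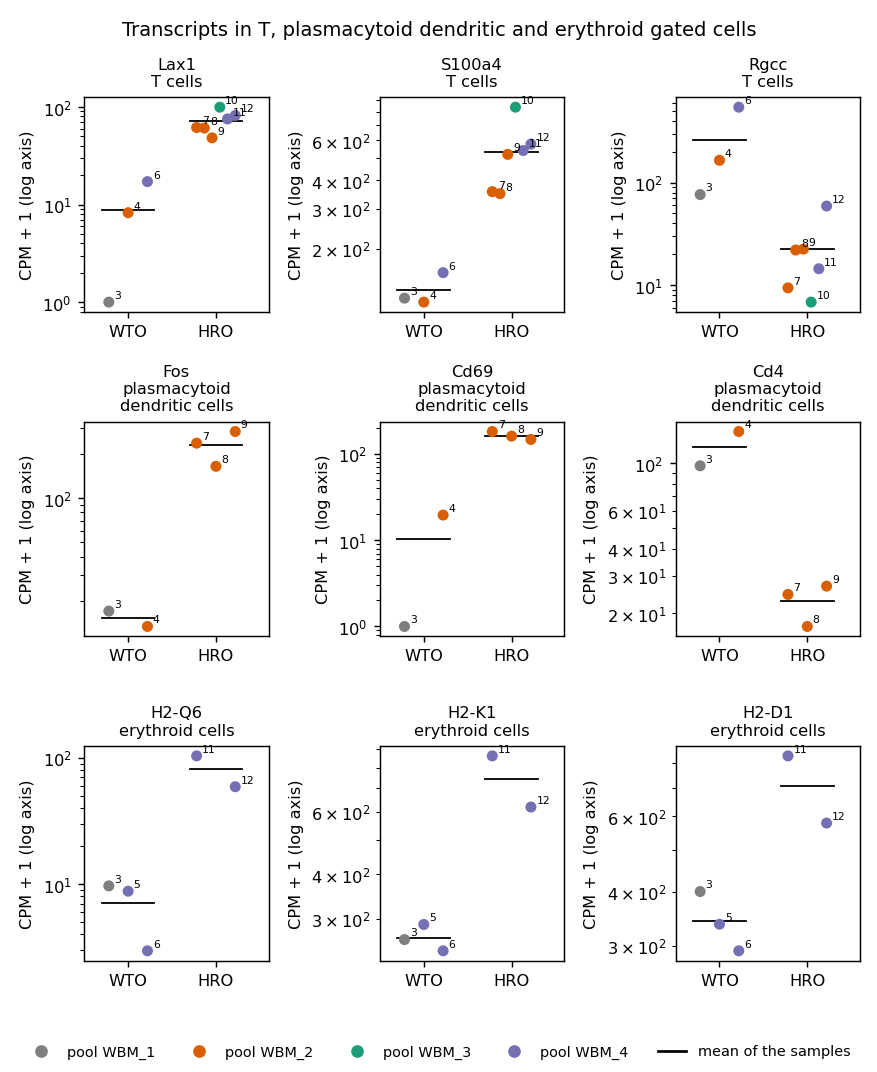
Level of 9 genes within a class, in CPM plus 1 on a log axis: Lax1, S100a4 and Rgcc in T cells, Fos, Cd69 and Cd4 in plasmacytoid dendritic cells, and H2-Q6, H2-K1 and H2-D1 in erythroid cells. Each dot is a hashtag sample with at least 20 cells of the class and lines are group means; no gene overlaps between groups.

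Set side by side, the interferon gamma response list had medians of 1.88 over all cells, 0.78 in T cells, 0.80 in B lineage cells, 1.004 in plasmacytoid and 2.51 in conventional dendritic cells and 1.75 in erythroid cells. The class I list had medians of 1.04, 0.54, 0.62, 0.40, 1.26 and 1.40 in the same order. Medians over all genes lay between −0.01 and 0.04. For the interferon gamma list in B lineage cells the median was 0.06 within WBM_2 and 1.80 within WBM_4, where HRO.11 was the sole HRO sample fitted. The classes differ in samples and in genes tested, and differences between them were not tested. Immediate early genes had medians of 0.43, 0.99, 0.47, 1.06, 3.15 and 0.46 in the same order of classes. In B lineage cells their median had opposite signs by pool, at 1.18 within WBM_2 and −0.41 within WBM_4, again with HRO.11 as the sole HRO sample of WBM_4. Calls were 5 of 18 over all cells, 2 of 16 in B lineage cells, 1 of 10 in plasmacytoid cells and 0 in the others. Of all genes, 10.5%, 5.02% and 0.052% were called higher in all cells, B lineage cells and plasmacytoid cells. The DNA methylation enzymes, which include the Tet and Dnmt families, had 0 calls among 10 tested in all cells and among 3 to 9 tested in each class.

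**Figure D5:**
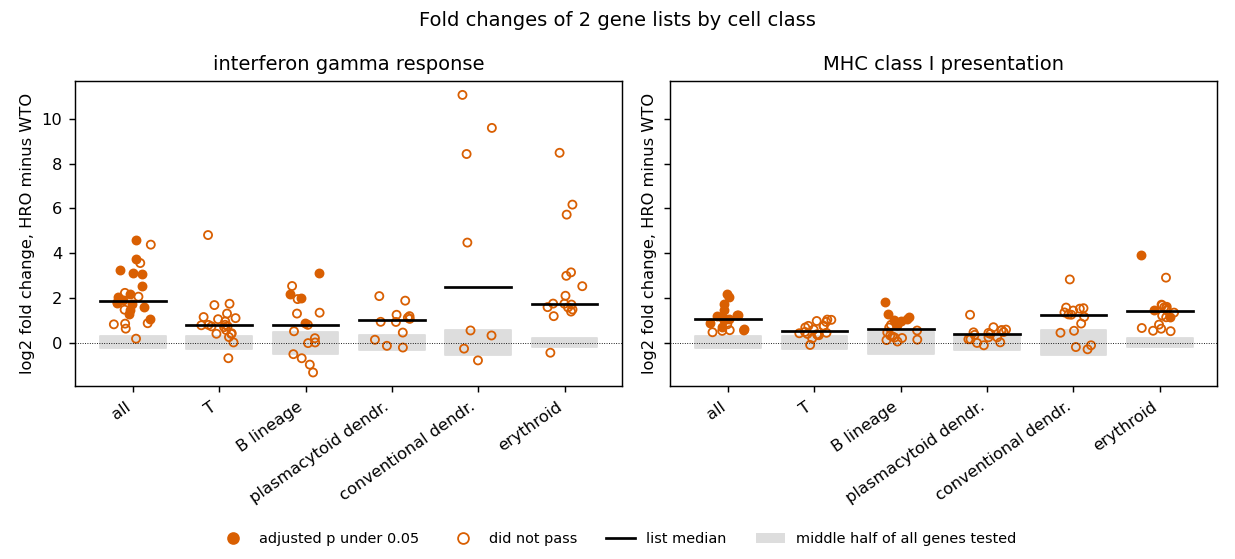
Log2 fold change, HRO against WTO, of each tested member of the interferon gamma response and class I presentation lists in all cells and 5 classes; filled dots have an edgeR adjusted p under 0.05, lines are list medians and grey bands hold the interquartile range of all genes. List medians lie above 0 in every class, while filled dots appear mainly in all cells and B lineage cells.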

How the data were processed

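The authors deposited 7 libraries in 4 pools as unnormalised counts: UMIs per gene, and hashtag tags, for each cell barcode. Per the file headers they come from Cell Ranger 3.0.0 (WBM_1) and 3.1.0 (the rest), and the submitters' processing notes name bcl2fastq, Seurat and mm10. Settings of the counting step are not given in the sources read.

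Hashtags were called per library with HTODemux of Seurat 5.3.0 (centred log-ratio, quantile 0.99), which gave 57944 singlets of 78720 barcodes. Cells with under 300 genes (4540) or at least 10% mitochondrial UMIs (10368) and 12 lower-UMI copies of barcodes shared by WBM_3a and WBM_3b were left out, and 43024 stayed. WBM_3a and WBM_3b shared 2078 barcodes and other library pairs 0 to 51. Doublets between hashtags were dropped by HTODemux, and no other doublet caller was run. Cells were gated on detected marker genes, with gates set after exploratory clusters and counts per hashtag had been seen. A gate gene is no independent finding in its class. Libraries of 1 pool were summed per hashtag.

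Counts were summed per hashtag and class and tested with edgeR 4.0.16 (quasi-likelihood, TMM, filterByExpr, Benjamini-Hochberg over all genes tested, threshold 0.05). The model held group and pool over WTY, WTO, HRY, HRO and chronic samples with at least 20 cells. CPM values are UMIs per 1000000 of the class in a sample. Conventional dendritic cells were fitted only with at least 10 cells, an alternative added after seeing the data, as was thinning to 1000 UMIs. Thinning left out cells with fewer UMIs. Shares were compared by two-sided exact permutation tests (scipy 1.17.1) with adjustment over 12 classes. Alternatives were DESeq2 1.42.0, RLE scaling, no filter, no pool term, 2 groups only, a Ddx3y term, other gates and hashtag calls, and leaving out samples. The fits were tested on simulated data. Simulated log2 changes of 1 were recovered in 72.2% of cases over all cells and 50.5% in erythroid cells. The shares were 5.38% in T, 8.65% in B lineage and 17.9% in plasmacytoid cells. For log2 changes of 2 they were 70.2% (T cells) to 92.9% (erythroid cells). Few calls in a class thus do not show that few genes changed.

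The members and all gene, marker and motif lists were chosen with earlier results of these data known. Named genes were the 8 largest rises and falls among those called with a mean of at least 20 CPM (50 over all cells) and, with no floor, up to 4 per list by p, leaving out sex-linked genes, markers of other classes and immunoglobulin, receptor and globin genes outside their class. Prss34, Cd4, the uncalled genes, the B-cell detection genes, the genes traced to their source cells and the printed promoters were picked after their values were seen. Gene lists numbered 22 and marker lists 24. Intervals and floors, which take 3 counts as the limit of a 0, cover counting error only.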

Additional observations from a re-analysis of the deposited data

Results flagged for a closer look

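In 17 of 186 groups of 4 to 10 samples (9.14%), 1 sample stood apart from the others by Dixon's criterion. Chance gives about 1 in 20 only if values are normally distributed. Each flagged sample was the highest of its group, in CPM or percent. Skew in these values was not tested, so 9.14% cannot be read as an excess. The CD8 T-cell share of WTO.3 was 1.45%, against 0.703% in the next WTO sample.

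Over all cells, WTO.4 stood above the other WTO samples in Gbp3 (14.3 CPM, next 6.26) and in Ighg2c, an immunoglobulin constant gene (245 CPM, next 24.6). Of the WTO UMIs of Ighg2c, 98.5% lay in plasma cells. WTO.3 stood above in Ccr7 (11.96 CPM, next 3.61), and HRO.9 above the other HRO samples in Bach2 (5.66 CPM, next 2.86). In T cells HRO.12 stood above the other HRO samples in Rgcc, at 58.0 CPM against 21.4 in the next.

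In B lineage cells HRO.9 was the high sample of 8 genes. These were Bach2 (130 CPM, next 22.4), Foxo1 (84.0, next 17.4), Satb1 (40.7, next 7.48), Cd93 (53.4, next 7.48), Nrgn (7.63, next 0), Uchl1 (5.09, next 0), Gfra1 (10.2, next 0) and Cpm (7.63, next 1.28). Of its B lineage cells 14 of 70 were pro-B and pre-B cells, against 0% in HRO.7 and HRO.8 and 7.50% in HRO.11. The part of that make-up in these levels was not tested. HRO.11 was the high HRO sample in Psmb9, at 524 CPM against 381 in the next. WTO.4 was the high WTO sample in Avil (1.65 CPM, next 0) and Fscn1 (8.25 CPM, next 0), each a count of few UMIs.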

How the results depend on the processing

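No paired analysis was possible because the HRO numbers 7 to 12 and the WTO numbers 3 to 6 share no number, so a replicate block could not be fitted. Of 180 class share values under alternatives, 168 kept direction and side of the threshold. No class passed in the main test, so keeping the side means again not passing. Leaving out samples also raises the smallest p that the permutation test can give, so this count is no measure of stability. With a stricter gate the HRO minus WTO differences in T (5.47 percentage points), CD8 T (2.54) and pro-B and pre-B cells (−2.60) passed, and with cells thinned to 1000 UMIs those in T (4.90), CD4 T (0.717), CD8 T (1.79) and pro-B and pre-B cells (−1.99) did. Signs turned for late erythroid cells (0.0584 with hashtags normalised within cells, 0.233 without HRO.7 and HRO.8), plasma cells (−0.0570, thinned), conventional dendritic cells (−0.0925 without HRO.7 and HRO.8) and early erythroid cells (−0.234 to 0.936 when single samples were left out). Counts of called genes moved in 52 of 89 values.

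For all cells they were 53 without the pool term, 1262 with a Ddx3y term, 1474 without HRO.7 and HRO.8, and 2 (without WTO.4) to 3143 (without HRO.9) when single samples were left out. For T cells they were 16 with DESeq2, 175 without a filter, 0 without the pool term, 0 over HRO and WTO samples only, 7 with a Ddx3y term, and 0 to 49 when single samples were left out. For B lineage cells they were 1277 without a filter, 167 over HRO and WTO samples only, 311 without HRO.7 and HRO.8, and 69 to 1958 when single samples were left out. For plasmacytoid dendritic cells they were 2 with DESeq2, 55 without a filter, 7 over HRO and WTO samples only, 0 with a Ddx3y term, 2 without HRO.7 and HRO.8, 18 with a stricter gate, and 0 to 9 when single samples were left out. For erythroid cells they were 233 without a filter, 6 without the pool term, 0 with a Ddx3y term, 37 with a stricter gate, and 1 to 172 when single samples were left out. For conventional dendritic cells they were 1 with DESeq2, 8 without a filter, 507 with a Ddx3y term, and 0 to 470 when single samples were left out.

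Apart from the smaller numbers of samples and genes that some settings tested, the cause was not tested. Of 1586 values of named genes, 1214 kept direction and call, 371 lost the call and 1 reversed, Trim2 in erythroid cells (3.44 with a Ddx3y term). Without WTO.4 neither dendritic class could be fitted, and conventional dendritic cells could not be fitted with a stricter gate or without HRO.7 and HRO.8. NK cells, at 0 to 18 per sample, were too few for a test of genes.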
